A study of Mus musculus with 6 samples.

Results

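Myosin heavy chains were examined in the epididymal fat of mice on 2 diets. The members were 10 genes, Myh15, Myh9, Myh10, Myh11, Myh14, Myh1, Myh2, Myh3, Myh4 and Myh7, among the 54532 genes listed, found by the symbols that GENCODE M21 (mouse build GRCm38) gives to the Ensembl identifiers. The family was chosen on the large rise of Myh15 in HFD-fed mice in these same libraries, so the values of Myh15 are a description and carry no test. The other members were tested as any other gene.

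The study asked whether cells like cancer-associated adipocytes occur in the fat of obese mice, and sequenced RNA from the fat pad around the epididymis. There were 3 libraries from mice on a normal diet (ND, 4.5% fat) and 3 from mice on a high-fat diet (HFD, 60% fat), all labelled as without treatment. Per the methods, the mice were male C57BL/6J and received the diets for 16 weeks from the age of 4 weeks. The labels do not say that each library came from a separate mouse, so p-values measure the spread between these libraries, which may be technical in part. Library totals lay between 16996896 and 18859320 counts. In the third ND library the summed level of 10 epithelial markers was 222 CPM (counts scaled to a common depth with edgeR's TMM factors) against 17.2 to 24.2 CPM in the other libraries, and that of 10 motile cilium genes was 172.5 CPM against 11.8 to 19.1 CPM.

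A conventional (class II) myosin is a motor made of a pair of heavy chains and of light chains that sit on the neck of each. The head of the heavy chain binds actin and splits ATP, and the tails of many molecules pack into filaments. Nonmuscle heavy chains pull on actin in cell division, migration and adhesion, the smooth muscle chain contracts vessel walls, and sarcomeric chains drive striated muscle.

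Myh15 encodes a sarcomeric-type heavy chain known from slow-tonic fibres of the extraocular muscles and from muscle spindles. The gene (ENSMUSG00000092009) lies on the plus strand at chr16:49057486-49199104 of GRCm38, and none of its exon bases overlap another annotated gene. The ND libraries held 0, 0 and 1 counts of it against 250, 106 and 263 in the HFD libraries. In CPM these HFD values were 13.66, 6.384 and 15.15. The diets did not overlap, and the second HFD library was the lowest of its diet. Since no ND library was above the floor of 3 counts, which averaged 0.162 CPM over the ND libraries and covers counting error only, the HFD mean of 11.73 ± 4.69 CPM (SD, n = 3) was at least 72.4-fold higher than on ND. Taken singly, the HFD libraries were at least 84.3-fold, 39.4-fold and 93.5-fold higher.

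The ATP-binding loop of the motor head is shown because it lies in a highly conserved part of the heavy chain, and there Myh15 stood apart from every other family gene in the annotation. The 24 coding bases of the loop are given for the 6 members with enough counts to pass the low-count filter. They run 5′ to 3′ and come from GENCODE M21 transcripts, with capitals where a base differs from Myh15.
Myh15: ggagaatctggttctggaaagaca
Myh9: ggGgaGtctggAGcAggGaagaca
Myh10: ggTgaatcGggtGcCggGaagaca
Myh14: ggagaGtctggCGctggGaagacG
Myh11: ggTgaGtctggAGcCggaaagaca
Myh1: ggagaatcCggGGcCggGaagacT
The loop covers codons 175 to 182 of Myh15. Counted from 1 at the first base of the loop, with the base of Myh15 first, the substitution T13G separated Myh15 from 9 of 9 other members and from 13 of 13 other heavy chain genes. The encoded residues were the same in those 13 genes, and each differed from Myh15 at 1 residue. Over aligned bases, Myh15 (5778 coding bases) was from 61.1% (Myh14) to 64.65% (Myh3) identical to the other 9 members, whereas Myh9 was 74.7% identical to Myh10 and Myh1 was 91.11% identical to Myh2.

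This distance bears on how the reads of Myh15 could be assigned. Of the 50-base windows of its annotated transcript, 0% occurred in a transcript of another gene, and its longest identical run with another member was 25 bases. The share was under 1% for Myh9 (0.68%), Myh10 (0.689%), Myh11 (0.34%) and Myh14 (0.325%). In the fast and slow muscle chains it was 30.5% for Myh1, 24.6% for Myh2, 18.9% for Myh4 and 20.04% for Myh7, so the counts of these genes are uncertain.

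**Figure D1:**
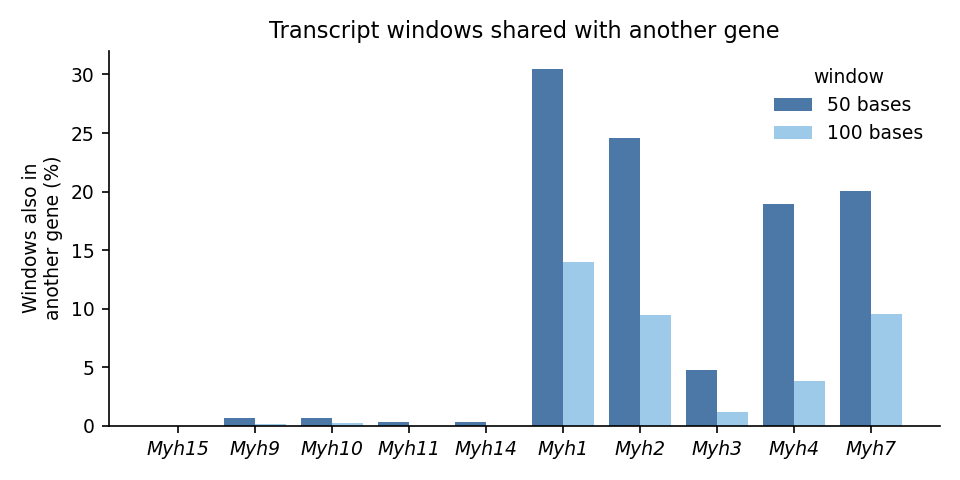
Share of the annotated transcript windows of each member that also occur in a transcript of another gene (vertical axis, percent), for windows of 50 bases (dark) and 100 bases (light). Myh15 has 0% at both lengths, and Myh1, at 30.5% and 14.0%, has the highest bars.

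The 300 bases around the RefSeq start of Myh15 are shown because the gene had almost no counts on ND. The window runs from 250 bases before to 50 bases after the start, on the plus strand at chr16:49057150-49057449 (RefSeq, GRCm38.p6), with capitals for matches to 2 of the motifs searched on both strands, the E-box CANNTG and TATAAA, which do not overlap each other here.
Myh15 promoter: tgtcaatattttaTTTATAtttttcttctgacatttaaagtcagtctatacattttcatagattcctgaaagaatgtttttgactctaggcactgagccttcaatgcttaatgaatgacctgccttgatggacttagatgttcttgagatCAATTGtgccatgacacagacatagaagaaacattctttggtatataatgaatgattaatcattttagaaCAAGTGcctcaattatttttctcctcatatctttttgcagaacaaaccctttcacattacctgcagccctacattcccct
The 2 E-box matches begin 100 and 30 bases before the RefSeq start. The TATAAA match, on the minus strand, begins 237 bases before it. In GENCODE M21 the gene begins later, at chr16:49057486, past the end of this window, so these distances hold for the RefSeq start only. An E-box occurs in 72.31% and TATAAA in 13.62% of 32851 mouse promoter windows of this length. GGAA, the core bound by ETS factors, matched at 2 places (in 95.98% of windows). The CArG box (1.63% of windows), the MEF2 site (0.56%) and the AP-1 letters TGANTCA (7.81%) did not match. These are matches of letters, and no binding was measured.

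Neighbouring genes were looked up for a change shared along the locus. Within 500 kb the annotation lists 14 genes, of which 7 are protein-coding, 8 had no counts and 3 were tested, and 0 were called in either direction by edgeR's quasi-likelihood test. At an unadjusted p under 0.05 there was 1, Cip2a, which DESeq2 also called, while limma-voom called 0. Retnla, a secreted resistin-like protein 213 kb away, had a log2 fold change of -1.44 for HFD against ND (edgeR adjusted p = 0.161). Dzip3, a ubiquitin ligase 63.3 kb away, had 0.21 (edgeR adjusted p = 0.413). Cip2a, an inhibitor of protein phosphatase 2A 37.8 kb away, had 1.25 (edgeR adjusted p = 0.0801).

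Of the 9 members other than Myh15, 5 passed the low-count filter and were tested, 1 rose on HFD and 0 fell at an adjusted p under 0.05 by edgeR's quasi-likelihood test. Taken at an unadjusted p under 0.05, 2 members were higher and 1 was lower. By DESeq2 there were 2 higher and 1 lower, and by limma-voom 1 and 0. Across all 15751 genes tested, edgeR called 15.9%, 9.85% higher and 6.04% lower. Over all genes, DESeq2 called 3629 of 28568 and limma-voom called 2361 of 15751. No share over all genes was taken at an unadjusted p under 0.05, so the members counted at that level have no background. The libraries of the diets did not overlap for 3 members, Myh9, Myh14 and Myh1, against 40.9% of all genes tested.

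Myh9 encodes nonmuscle myosin heavy chain IIA, the main class II myosin of migrating and blood-derived cells (ENSMUSG00000022443, chr15:77760587-77842175, minus strand). It had 362.3, 367.3 and 329.2 CPM on ND against 602.2, 493.2 and 635.7 CPM on HFD. The lowest HFD library was above the highest ND library. The ND mean of 353 ± 20.7 CPM rose 1.64-fold to 577 ± 74.5 CPM on HFD (SD, n = 3 per diet), or 0.71 on the log2 scale (standard error 0.16, edgeR adjusted p = 0.0286). The direction held with every library left out, with log2 fold changes from 0.62 to 0.81. The call did not hold without the first (edgeR adjusted p = 0.111), the second (0.0846) or the third (0.103) ND library or without the first HFD library (0.127). In those fits, in that order, the calls over all genes also fell, from 2504 to 492, 591, 1003 and 474.

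Myh14 encodes nonmuscle heavy chain IIC, known from epithelia and neurons (ENSMUSG00000030739, chr7:44605803-44670843, minus strand). Its levels were 3.833, 7.25 and 10.9 CPM on ND against 18.41, 25.6 and 12.67 CPM on HFD. The diets did not overlap, but the third ND library, which also had the high epithelial markers, and the third HFD library lay close together. The log2 fold change was 1.36 (standard error 0.41, fold 2.57) and did not pass (edgeR adjusted p = 0.0613). DESeq2 called it (1.35, adjusted p = 0.00862), and so did edgeR without the third HFD library (1.57, adjusted p = 0.0489). Without the third ND library the log2 fold change was 1.74 (edgeR adjusted p = 0.0597). Of its exon bases, 0.825% overlap the antisense gene 2310016G11Rik, whose reads an unstranded kit cannot tell apart.

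Myh10 encodes nonmuscle heavy chain IIB, which holds stable tension in stromal and neural cells (ENSMUSG00000020900, chr11:68691559-68816632, plus strand). It had 79.47, 75.46 and 71.58 CPM on ND against 66.61, 82.69 and 40.37 CPM on HFD. The diets overlapped, and the HFD libraries were spread more widely than the ND libraries, with the second above and the first and the third below every ND library. The log2 fold change was -0.26 (standard error 0.24, edgeR adjusted p = 0.494), and without the third HFD library it was -0.03.

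On a per-length scale, Myh10 made up less of the nonmuscle chains in each HFD library than in any ND library. FPKM, the fragment count per length of transcript and per depth, was used, since it allows levels of different genes to be compared. Of the summed FPKM of Myh9, Myh10 and Myh14, Myh10 gave 21.02%, 19.7% and 20.3% of it in the ND libraries against 11.5%, 15.95% and 7.05% in the HFD libraries. The mean share went from 20.3% ± 0.662 to 11.5% ± 4.45 (SD, n = 3 each), a difference of -8.83 points with a two-sided exact permutation p = 0.1, the smallest that 3 against 3 allows (0.2 after adjustment over 2 tests). The share also depends on Myh9, the largest part of the sum. In the second HFD library Myh10 had 7.95 FPKM, above the ND libraries (6.87 to 7.74), while its share was below theirs. Myh14 gave 1.46%, 2.72% and 4.43% on ND against 4.56%, 7.10% and 3.18% on HFD. These overlapped, with a difference of 2.08 points (exact permutation p = 0.2, adjusted 0.2). The ratio of Myh14 to Myh10 in FPKM was 0.0694, 0.138 and 0.219 on ND against 0.398, 0.445 and 0.451 on HFD, without overlap.

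Myh11 encodes the smooth muscle heavy chain, a marker of vessel wall smooth muscle (ENSMUSG00000018830, chr16:14194535-14291372, minus strand). Its levels were 101.2, 52.84 and 89.97 CPM on ND against 37.54, 61.49 and 26.9 CPM on HFD. The second library of each diet broke the separation, since the second HFD library exceeded the second ND library. The log2 fold change was -0.95 (standard error 0.35, edgeR adjusted p = 0.102). DESeq2 called Myh11 lower (-0.97, adjusted p = 0.0339), as did edgeR without the second HFD library (-1.33, adjusted p = 0.0226). In bulk tissue fewer cells of a type and less RNA per cell cannot be told apart.

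The chains of striated muscle were near or at the detection limit. Myh1, the fast IIx chain, had 13, 11 and 16 counts on ND against 11, 9 and 3 on HFD. In CPM, which corrects for library size, the diets did not overlap, with 0.638 to 0.7997 on ND and 0.1728 to 0.6011 on HFD. Its log2 fold change was -0.69 (standard error 0.50, edgeR adjusted p = 0.369), and 8.106% of its exon bases overlap the antisense gene Myhas.

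The other 4 members did not reach the filter. Myh2, the fast IIa chain, had 9, 10 and 7 counts on ND against 9, 3 and 3 on HFD. Myh3, the embryonic chain, had 0, 0 and 1 counts on ND against 2, 0 and 2 on HFD. Myh7, the slow and cardiac beta chain, had 2, 0 and 0 counts on either diet, and Myh4, the fast IIb chain, had 0 in every library. None of these 4 genes had more than 10 counts in a library. A small difference in them was not detectable at this depth, where 3 counts equal 0.150 to 0.181 CPM. Of the remaining family genes, Myh7b had at most 5 counts, and Myh6 (alpha cardiac chain), Myh8 (perinatal chain) and Myh13 (extraocular chain) had at most 3 counts in a library. None of these reached the filter, and Myh16 was not matched to a symbol. Among the sarcomeric-type chains, Myh15 was the one with a count above 16 in any library.

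**Figure D2:**
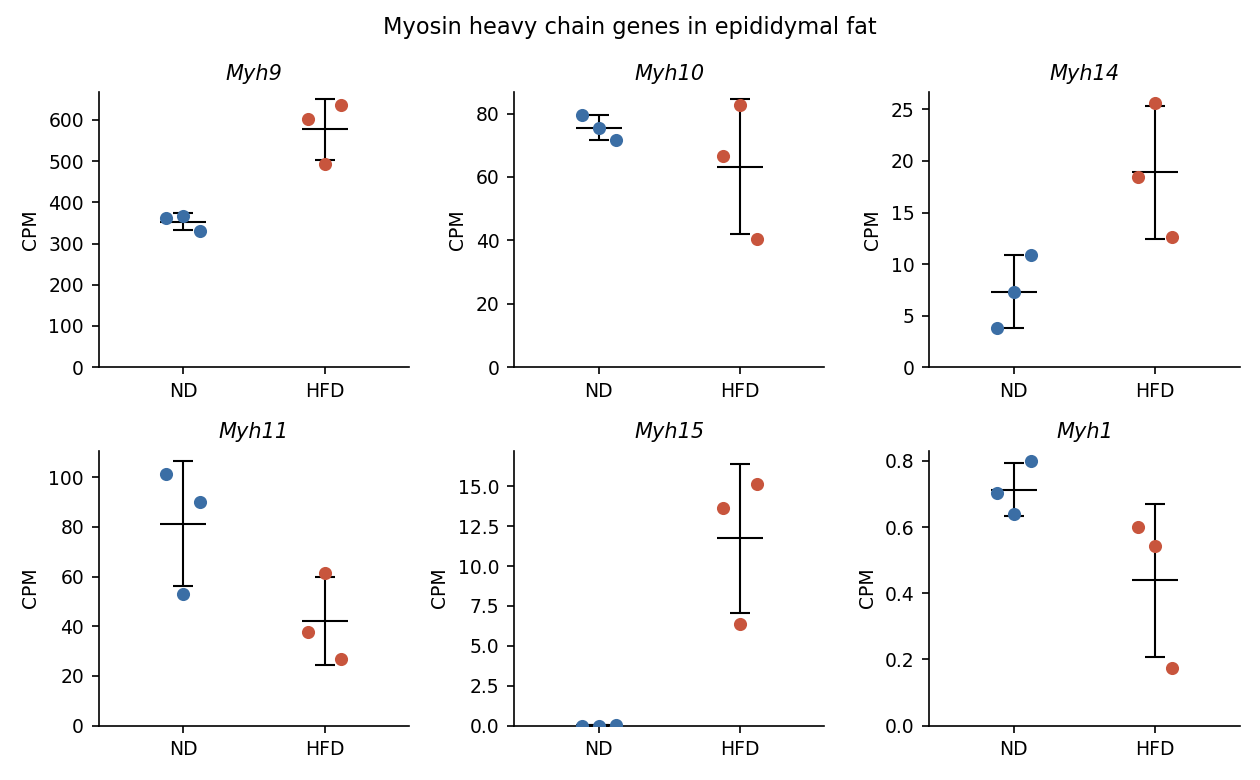
Level of the 6 members that passed the low-count filter in each library (vertical axis, CPM, each panel from 0) by diet. Points are libraries and bars the mean ± SD (n = 3). Myh15 lies at 0 to 0.04998 CPM on ND and at 6.384 to 15.15 CPM on HFD, and Myh10 and Myh11 overlap between diets.

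**Figure D3:**
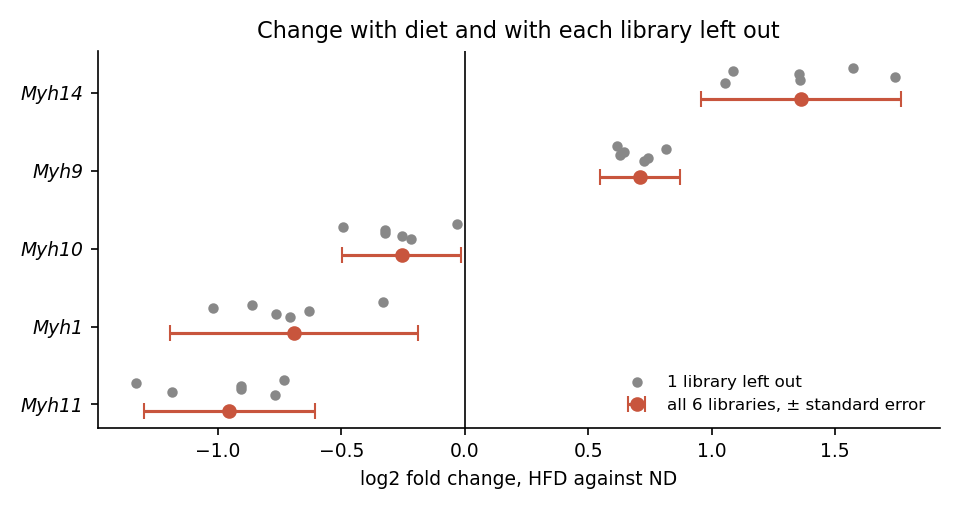
log2 fold change for HFD against ND of the 5 tested members other than Myh15 (horizontal axis), with the fit on 6 libraries ± standard error (red) and the fits that each leave out 1 library (grey). Grey points stay on the same side of 0 as the red point for each of the 5 genes, and those of Myh10 reach -0.03.

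In FPKM, the order of the levels on ND was Myh9 (27.7 ± 1.86), Myh11 (10.85 ± 3.36), Myh10 (7.32 ± 0.436), Myh14 (1.02 ± 0.484), Myh1 (0.114) and Myh2 (0.0672), with Myh15 at 0.007915 in 1 library. On HFD it was Myh9 (44.8 ± 5.72), Myh10 (6.07 ± 2.06), Myh11 (5.55 ± 2.35), Myh14 (2.61 ± 0.899), Myh15 (1.86 ± 0.740), Myh1 (0.0694) and Myh2 (0.0397, SD and n = 3 throughout). Myh10 and Myh11 overlapped between libraries on either diet, and on HFD Myh14 overlapped Myh15 and Myh1 overlapped Myh2, so their order was not resolved. Summed over 14 heavy chain genes the FPKM was 50.63, 44.7 and 46.09 on ND against 63.12, 59.13 and 60.91 on HFD. Myh15 made up 3.43%, 1.71% and 3.93% of that sum in the HFD libraries.

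**Figure D4:**
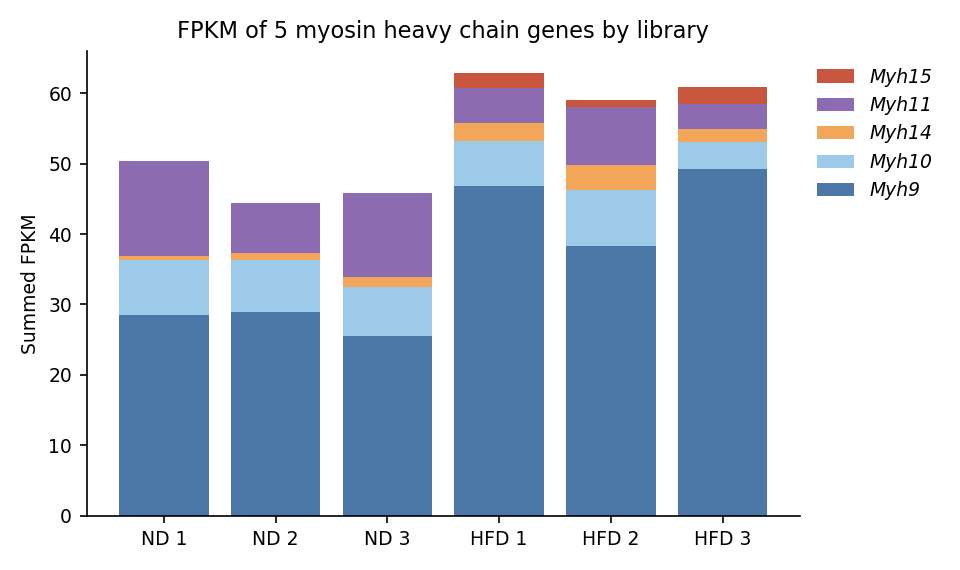
Summed FPKM (vertical axis) of 5 heavy chain genes in each of the 6 libraries, stacked by gene. Myh9 is the largest part of every bar, and the Myh15 part (1.01 to 2.39 FPKM) is visible in the HFD libraries.

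Myosin light chains, the partners on the neck of the heavy chain, did not pass. Of 12 listed, 8 were tested and 0 were called in either direction by edgeR, with 1 higher and 3 lower at an unadjusted p under 0.05. DESeq2 called 2 lower, limma-voom 0, and edgeR without the second HFD library 4 lower. The median log2 fold change was -0.25, against 0.01 for all genes tested. Myl9, the regulatory light chain of smooth muscle, had 102.4, 58.0 and 89.27 CPM on ND against 42.9, 54.75 and 29.95 CPM on HFD (log2 fold change -0.97, edgeR adjusted p = 0.0546). Myl6, the shared essential light chain of nonmuscle and smooth muscle myosin, had a log2 fold change of 0.02. For 5 myosin folding genes, the chaperones Unc45a, Unc45b, Hsp90aa1 and Hsp90ab1 and the methyltransferase Smyd1, edgeR called 0, with 2 higher at an unadjusted p under 0.05. With DESeq2 1 of them was called and with limma-voom 0.

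Genes around nonmuscle actomyosin, the actin network that Myh9 pulls on, included 12 that rose. All 28 listed genes were tested, and 1 fell by edgeR, with a median log2 fold change of 0.42. The actin scaffold Iqgap1 rose by 1.66 on the log2 scale (edgeR adjusted p = 0.0149) and the crosslinker Actn1 by 1.495 (adjusted p = 0.0176). The GTPase Rhoc rose by 0.99 (edgeR adjusted p = 0.0192) and Tln1, which links integrins to actin, by 1.05 (adjusted p = 0.0226). Mylk, the kinase that activates myosin through its light chain, fell by 0.62 (edgeR adjusted p = 0.0343). Without any 1 of the 3 ND libraries or the first HFD library, 0 of the 28 were called, and without the third HFD library 7 rose. In those fits calls over all genes also changed, from 2504 to between 474 (without the first HFD library) and 2095 (without the third).

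Unconventional myosins, the myosins outside class II, included 6 that rose. Of 24 listed, 18 were tested and 0 fell by edgeR, with 1 lower at an unadjusted p under 0.05 and 1 lower by DESeq2 but 0 by limma-voom. Myo1f, a class I myosin of immune cells, had 26.45, 20.18 and 23.64 CPM on ND against 234.6, 125.7 and 419.5 CPM on HFD (log2 fold change 3.47, edgeR adjusted p = 0.00690). Myo1e, a widely expressed class I myosin, rose by 2.90 (edgeR adjusted p = 0.00651). The vesicle motor Myo5a rose by 1.51 (edgeR adjusted p = 0.0154) and Myo9b by 1.29 (adjusted p = 0.0131). Myo3a had no counts. The list had 2 higher without the first ND, the second ND or the first HFD library and 3 without the third ND library.

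Markers of other cells moved in the same libraries. Of 12 macrophage markers 9 rose and 0 fell by edgeR, with 0 lower at an unadjusted p under 0.05, by DESeq2 or by limma-voom. Their summed level was 1925 to 2034 CPM on ND against 5260, 4096 and 8931 CPM on HFD. For 10 lipid-associated macrophage markers, 9 of which rose, it was 396 to 557 CPM on ND against 6546, 3659 and 15430 CPM on HFD. In the third HFD library these sums were 2.18-fold and 4.22-fold those of the second, beside 2.37-fold for Myh15 and 1.29-fold for Myh9, while Myh14, Myh10 and Myh11 were at 0.495, 0.488 and 0.437 of the second library and 12 adipocyte markers at 0.416. The ratio of the third to the second HFD library was 1.84 for fibroblast and progenitor markers and 1.85 for platelet markers. It was 0.774 for pericyte, 0.713 for epithelial, 0.598 for mesothelial and 0.530 for endothelial markers. Against the first HFD library, Myh15 was 1.11-fold and the lipid-associated list 2.36-fold higher in the third. The part of these cells in the levels of the members was not tested.

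Striated muscle markers moved in both directions. The summed level of 24 skeletal muscle sarcomere genes was 40.33, 77.26 and 50.93 CPM on ND against 29.29, 29.75 and 33.46 CPM on HFD, below every ND library. Acta1, skeletal alpha-actin, made up much of the ND sums, at 22.08, 65.43 and 30.29 CPM on ND against 3.169, 5.722 and 3.801 CPM on HFD. Without Acta1, a choice made after its values were seen, the other 23 genes summed to 18.25, 11.83 and 20.64 CPM on ND. On HFD they summed to 26.12, 24.03 and 29.66 CPM, above every ND library. That sum still held Pvalb, the 1 gene of the list called higher, and a sum without both genes was not made. The lowest HFD sum exceeded the highest ND sum by less than the level of Pvalb in any HFD library. The separation therefore cannot be read apart from Pvalb. Of the 24 genes 9 were tested, 1 rose and 1 fell by edgeR, with a median log2 fold change of 0.29 and with 4 higher and 1 lower at an unadjusted p under 0.05. Ckm, the muscle creatine kinase, and Cacna1s, the calcium channel of the T-tubule, had no counts. Acta1 fell by 3.22 on the log2 scale (edgeR adjusted p = 0.00918), whereas the calcium buffer Pvalb rose by 4.13 (adjusted p = 0.00845), at 4.147 to 5.601 CPM on HFD. Of 7 cardiac muscle genes 2 were tested. The calcium release channel Ryr2 rose by 3.49 on the log2 scale (edgeR adjusted p = 0.00881), and the other had a log2 fold change of 0.10.

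Among 15 smooth muscle contractile genes, the company of Myh11, 13 were tested, 1 rose and 2 fell, with a median log2 fold change of -0.32. Cnn1, an actin-binding protein of contractile smooth muscle, had 11.82, 2.784 and 10.35 CPM on ND against 0.8197, 1.626 and 0.3456 CPM on HFD (log2 fold change -3.16, edgeR adjusted p = 0.0268). Casq2, a calcium store protein, fell by 2.20 (edgeR adjusted p = 0.0143). Synpo2, an actin-bundling protein, rose by 2.74 (edgeR adjusted p = 0.00640). The number that fell was 0 without the first ND or the first HFD library and 1 without the second or the third ND library. Of 7 pericyte markers, which share vessel walls with Myh11, Rgs5 fell by 1.16 (edgeR adjusted p = 0.0192) and was the only marker of the list that edgeR called. At an unadjusted p under 0.05, 4 of them were lower and 0 higher, while DESeq2 had 3 lower and limma-voom 2.

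Genes with the pattern nearest to that of a member were sought among 13710 protein-coding genes that passed the low-count filter. The measure was the root mean square difference of centred log2 CPM over the 6 libraries, in which all points share libraries and depth. A prior count of 2 was added before logs were taken. It sets most of the ND level of Myh15, which had 0, 0 and 1 counts there. For Myh15 the nearest were F7 (0.399), Vsig8 (0.402), Rgs1 (0.441), Il7r (0.504) and Atp6v0d2 (0.510). F7 encodes coagulation factor VII, Rgs1 a regulator of G protein signalling in immune cells, Il7r the interleukin-7 receptor chain, and Atp6v0d2 a proton pump subunit of macrophages and osteoclasts. F7 had 0.2159, 0.348 and 0.8997 CPM on ND against 58.96, 33.06 and 102.1 CPM on HFD. For each of these 5 genes, as for Myh15, the second HFD library was the lowest and the third the highest of its diet. The genes were picked for likeness over these same libraries, so the shared order largely follows from the choice and is a description.

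**Figure D5:**
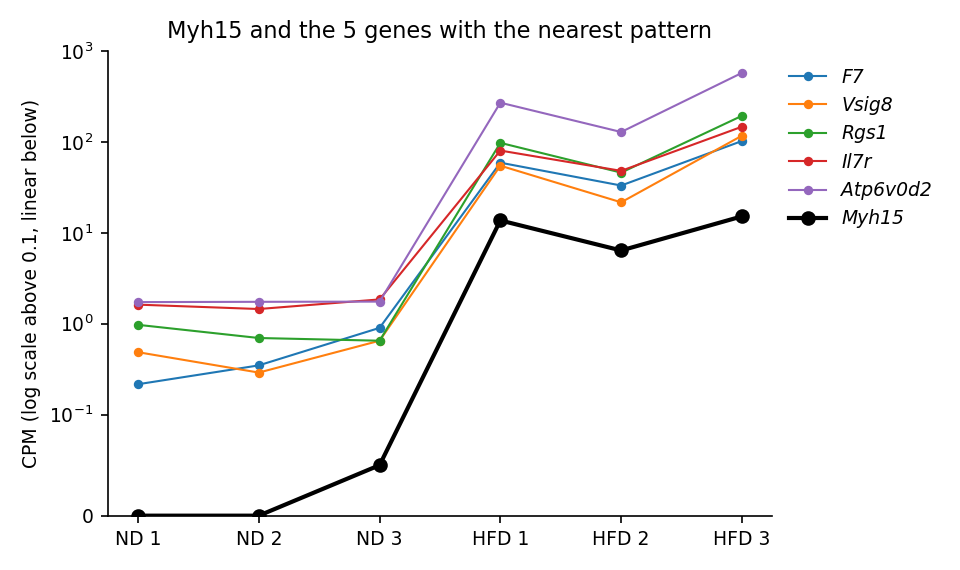
Level of Myh15 (black) and of the 5 genes with the nearest pattern (vertical axis, CPM, log scale above 0.1 and linear below) in each library. Lines join the values of a gene and imply no order of libraries. All 6 genes have their lowest HFD value in the second HFD library, and the 5 were chosen for likeness to Myh15 in these libraries.

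For Myh9 the nearest patterns were those of Gmpr2 (0.0415), Map7d1 (0.0507) and Zmiz1 (0.0587), and for Myh14 those of Scn8a (0.252), Fhod3 (0.258) and Lpar3 (0.269). For Myh11 they were Syde2 (0.104), the light chain gene Myl9 (0.123) and Siglech (0.158). Myl9 and Myh11 both had their lowest ND value in the second ND library and their highest HFD value in the second HFD library. These are the libraries by which the match was made.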

How the data were processed

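RNA of epididymal fat was extracted with TRIzol and made into libraries with the NEBNext Ultra RNA kit, which does not mark strand, so reads of a gene and its antisense partner cannot be told apart. The authors deposited raw counts per gene without normalization and an FPKM table of the same shape. The methods name TopHat and Cufflinks on GRCm38, whereas the submitters' processing notes list CASAVA 1.8, fastp, HISAT2 2.0.5, featureCounts 1.5.0-p3 and DESeq2 1.20.0 and the builds GRCh38 and hg38. The identifiers are mouse Ensembl genes, 54495 of 54532 of them in GENCODE M21, from which names and coordinates were taken.

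HFD was tested against ND on the deposited counts with the quasi-likelihood F-test of edgeR (edgeR 4.0.16, R 4.3.3, robust=TRUE), TMM normalization, filterByExpr, diet as the only factor and Benjamini-Hochberg adjustment over all 15751 genes at 0.05. The fit was repeated with DESeq2 1.42.0, limma-voom (limma 3.58.1), other normalizations and low-count filters, robust=FALSE, a replicate block, limma on log2(FPKM + 1) or log2(FPKM + 0.1) where FPKM reached 0.5 in 3 or more libraries, and each library left out. The edgeR fit was tested on simulated data. Myh15 was compared with a floor of 3 counts. The members and lists were chosen with earlier results of these data known. Every member is named, and of most lists up to 4 genes per direction with the lowest p among those called, and those with no counts. The 2 macrophage lists are given as counts and sums without names. Of the adipocyte markers that fell, only Cfd, with the largest fall, is named. A few list genes that were not called (Myl9, Myl6 and the folding genes) were named after their values were seen. Promoters come from RefSeq, which gave one for 9 of the 10 members. Identities over aligned bases were computed with Biopython 1.88, and shared windows and runs were found by exact matching of letters.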

Additional observations from a re-analysis of the deposited data

How the results depend on the processing

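Each tested member other than Myh15 kept its direction under every alternative in which it was tested. With the replicate block 0 members were called higher, since Myh9 had an adjusted p of 0.0606, and with DESeq2 2 were higher and 1 was lower. Same-numbered libraries were not taken as pairs, since the labels give them only a number in common. Their deviations from the diet means had correlations of -0.0858, -0.0556 and -0.00532, which cannot show whether they shared a processing step. The replicate block left 4 nonmuscle actomyosin genes higher and 0 lower, 1 light chain lower and 1 smooth muscle gene lower, and 1886 genes called in all. DESeq2 called 2 light chains and 1 unconventional myosin lower, no filter gave 1 light chain lower, and limma-voom gave 1 smooth muscle gene lower. With 1 library left out at a time, members higher went from 0 to 2 and lower from 0 to 1, light chains higher from 0 to 1 and lower from 0 to 4, unconventional myosins higher from 2 to 7 and lower from 0 to 0. In the same fits nonmuscle actomyosin genes higher went from 0 to 15 and lower from 0 to 1, smooth muscle genes higher from 1 to 2 and lower from 0 to 2, skeletal muscle genes higher from 1 to 2 and lower from 1 to 1, and all calls from 474 to 3940. The Myh10 share difference went from -11.06 to -6.607 points, that of Myh14 from 1.001 to 2.961, and the Myh15 bound from 61.9-fold to 88.9-fold. The fitted log2 fold change of Myh15 depends on how counts near 0 are handled (8.89 by edgeR, 8.16 by limma-voom, 4.17 on log2(FPKM + 0.1), 1.47 on log2(FPKM + 1)). The cause of the other changes was not tested. A share within a library cannot change with the scaling of that library, so TMM-scaled CPM per length in place of FPKM is no check of the shares. Depth limits the striated muscle chains, of which 1 of the 5 other than Myh15 was tested.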

Other observations

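Lists of further cell types were summed in the same libraries, as values with no explanation. Of 9 osteoclast and cell fusion genes 8 were tested, 5 rose and 2 fell. Dcstamp, a membrane protein needed for fusion of osteoclast precursors, rose by 4.81 on the log2 scale (edgeR adjusted p = 0.0102), and Ctsk, a collagen-degrading protease, by 3.30 (adjusted p = 0.0103). Tnfrsf11a rose by 2.43 (edgeR adjusted p = 0.0112), Mmp9 fell by 1.94 (adjusted p = 0.0149) and Acp5 fell by 0.92 (adjusted p = 0.0448). Siglec15 had 0 CPM in each ND library and 3.825, 1.024 and 7.257 CPM on HFD, and Calcr had no counts.

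Of 12 adipocyte markers 1 rose (Lep, by 1.38, edgeR adjusted p = 0.0125) and 3 fell, among them Cfd, which fell by 3.42 (adjusted p = 0.0396). By edgeR, 0 of 7 endothelial, 8 fibroblast and progenitor, 7 mesothelial, 10 epithelial (4 tested) and 10 motile cilium genes (4 tested) were called. At an unadjusted p under 0.05 these lists had 1, 1, 0, 1 and 1 genes lower and 0 higher, DESeq2 called 1, 1, 0, 1 and 1 lower, and limma-voom called 0. Of 6 platelet markers 4 were tested, Treml1 rose by 6.36 (edgeR adjusted p = 0.00619) and Gp1bb had no counts.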
